A study of Mus musculus with 2 samples.

Results

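CXC chemokines are small secreted proteins that draw leukocytes into tissue, and 7 of them are described here across the cells of inflamed mouse retina: Cxcl1, Cxcl2, Cxcl5, Cxcl9, Cxcl10, Cxcl12 and Cxcl16. They were taken by symbol from the 32245 distinct symbols of the feature table, and all 7 were measured in both libraries. The data were single-cell RNA libraries (10x Genomics 3′ chemistry) of retinas that had received lipopolysaccharide (LPS, a bacterial cell wall component) in the vitreous at 0.5 µg per eye. The knockout library came from GLAST-CreER; Atg5fl/fl mice treated with 4-hydroxy-tamoxifen, in which the promoter of a glial glutamate transporter drives an inducible Cre in Müller glia against floxed Atg5, which autophagosome formation requires. The control library came from Atg5fl/fl mice, which had LPS but, as far as the labels say, neither Cre nor the drug, so that gene loss, Cre and drug cannot be told apart. Each library pooled 6 retinas, and the sources used here do not give the time between injection and collection.

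Each group had 1 library. No difference between libraries therefore has a replicate check, no test between groups was made, and all intervals, given in brackets, are 95% intervals for counting error only. Molecules were counted as UMIs (unique molecular identifiers), and a level in CPM is a gene's UMIs scaled to 1000000 UMIs of the same cells. Ratios are knockout over control. In sums over a whole library, fewer cells of a type and less RNA per cell cannot be told apart.

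The family falls into groups by the receptor that reads each ligand. Cxcl1, Cxcl2 and Cxcl5 bind Cxcr2 and draw neutrophils, and they are classic targets of NF-κB, the transcription factor that LPS and interleukin-1 activate. Cxcl9 and Cxcl10 bind Cxcr3 and draw T and NK cells, Cxcl9 mainly after interferon gamma and Cxcl10 after either type of interferon or NF-κB. Cxcl12, made constitutively by stromal and vascular cells, binds Cxcr4 and the scavenging receptor Ackr3. Cxcl16 is made as a membrane protein on a mucin stalk, can be shed by proteases, and binds Cxcr6. Müller cells, the glia that span the retina, are known to make several of these ligands when the retina is inflamed.

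In mm10, 5 of the 7 genes lie on chromosome 5. Cxcl5 (ENSMUSG00000029371) spans chr5:90759360-90761624, Cxcl1 (ENSMUSG00000029380) chr5:90891241-90893115 and Cxcl2 (ENSMUSG00000058427) chr5:90903871-90905938, all on the plus strand. Cxcl9 (ENSMUSG00000029417) spans chr5:92321347-92328079 and Cxcl10 (ENSMUSG00000034855) chr5:92346638-92348889, both on the minus strand. Cxcl12 (ENSMUSG00000061353) lies at chr6:117168535-117181367 on the plus strand and Cxcl16 (ENSMUSG00000018920) at chr11:70453983-70459984 on the minus strand. Cxcl10 overlaps Art3 and Cxcl16 overlaps Zmynd15 on the opposite strand, and no source used here says that strand was used in counting, so UMIs of such pairs may not have been told apart. Of 699 stretches of 50 bases at the 3′ ends of Cxcl2 transcripts, 61 also occur in Cxcl3 transcripts.

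RefSeq promoter sequence (GRCm38.p6, the build of mm10) was at hand for 5 of the 7 genes, and 3 are shown because Cxcl1 and Cxcl2 share a motif while Cxcl10 carries 2 kinds. Each runs 5′ to 3′ along the gene from 250 to 31 bases before its start, and capitals mark matches to the NF-κB consensus and, in Cxcl10, to the interferon-stimulated response element (ISRE).
Cxcl1 (chr5:90890995-90891214, plus strand): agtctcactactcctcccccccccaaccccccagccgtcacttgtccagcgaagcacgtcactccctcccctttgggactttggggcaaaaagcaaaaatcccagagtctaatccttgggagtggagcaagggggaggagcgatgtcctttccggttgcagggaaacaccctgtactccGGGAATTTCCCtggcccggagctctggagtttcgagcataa
Cxcl2 (chr5:90903649-90903868, plus strand): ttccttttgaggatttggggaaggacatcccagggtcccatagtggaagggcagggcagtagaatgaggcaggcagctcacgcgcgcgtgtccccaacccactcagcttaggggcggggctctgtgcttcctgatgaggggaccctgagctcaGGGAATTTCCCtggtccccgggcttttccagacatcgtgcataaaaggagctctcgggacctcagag
Cxcl10 (chr5:92348920-92349139, minus strand): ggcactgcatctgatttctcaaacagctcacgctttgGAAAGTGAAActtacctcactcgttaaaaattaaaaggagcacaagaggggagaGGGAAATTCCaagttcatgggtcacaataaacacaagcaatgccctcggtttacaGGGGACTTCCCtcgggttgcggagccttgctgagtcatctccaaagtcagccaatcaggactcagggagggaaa

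Cxcl1 and Cxcl2 both held GGGAATTTCC, beginning 71 bases before the start of Cxcl1 and 97 bases before that of Cxcl2, with an overlapping match on the opposite strand. That sequence occurred on either strand in 0.0791% of 32851 promoter windows of the same length, and the wider NF-κB consensus in 6.34%. The shorter list of letters was read from the Cxcl1 and Cxcl2 windows themselves, so its low share is no check on their likeness. Only the wider consensus was set beforehand. Cxcl10 held NF-κB matches beginning 159 and 104 bases before its start, the nearer one with overlapping matches. It also held GAAAGTGAAA, beginning 213 bases before its start, a match to the ISRE, which 2.63% of windows held on either strand. The GAS element of interferon gamma signalling (TTCNNNGAA, both strands, 6.27% of windows) matched in none of the 5 windows, and those of Cxcl9 and Cxcl12 matched none of the motifs. A match describes the letters of a window, not a bound site.

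The knockout library held 50669135 UMIs in 5229 barcodes and the control library 43664504 UMIs in 8690 barcodes. The filter (at least 500 genes, under 25% mitochondrial UMIs) kept 4661 knockout cells with a median of 6808 UMIs and 8273 control cells with a median of 1396 UMIs, and 15 barcode sequences occurred in both libraries. Clusters that no marker list could name held 32.6% of knockout and 34.8% of control cells. Müller glia-like cells had UMIs of all 11 of their markers, neutrophil-like cells of all 12 and endothelial-like cells of all 10 in both libraries. Atg5 stood at 18.1 CPM in knockout and 19.4 CPM in control Müller glia-like cells (ratio 0.931, 0.729 to 1.19). Tags at its 3′ end stay countable where they lie outside the deleted part, so this value checks neither the deletion nor the labels.

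Each chemokine had its own pattern of source cells. Cxcl2 lay mainly in neutrophil-like cells, Cxcl5 in a small unnamed cluster of non-neuronal cells, and Cxcl1 in that cluster, endothelial-like and Müller glia-like cells. Cxcl10, Cxcl12 and Cxcl16 lay in Müller glia-like cells with myeloid or endothelial-like cells beside them. The clusters were built without the 7 genes, but genes that vary with them were used, so the order of levels is a description. Pericyte-like cells, with 3 knockout and 13 control cells, were too few to rank; their Cxcl1 stood at 2413 CPM in knockout and 2069.6 CPM in control cells.

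**Figure D1:**
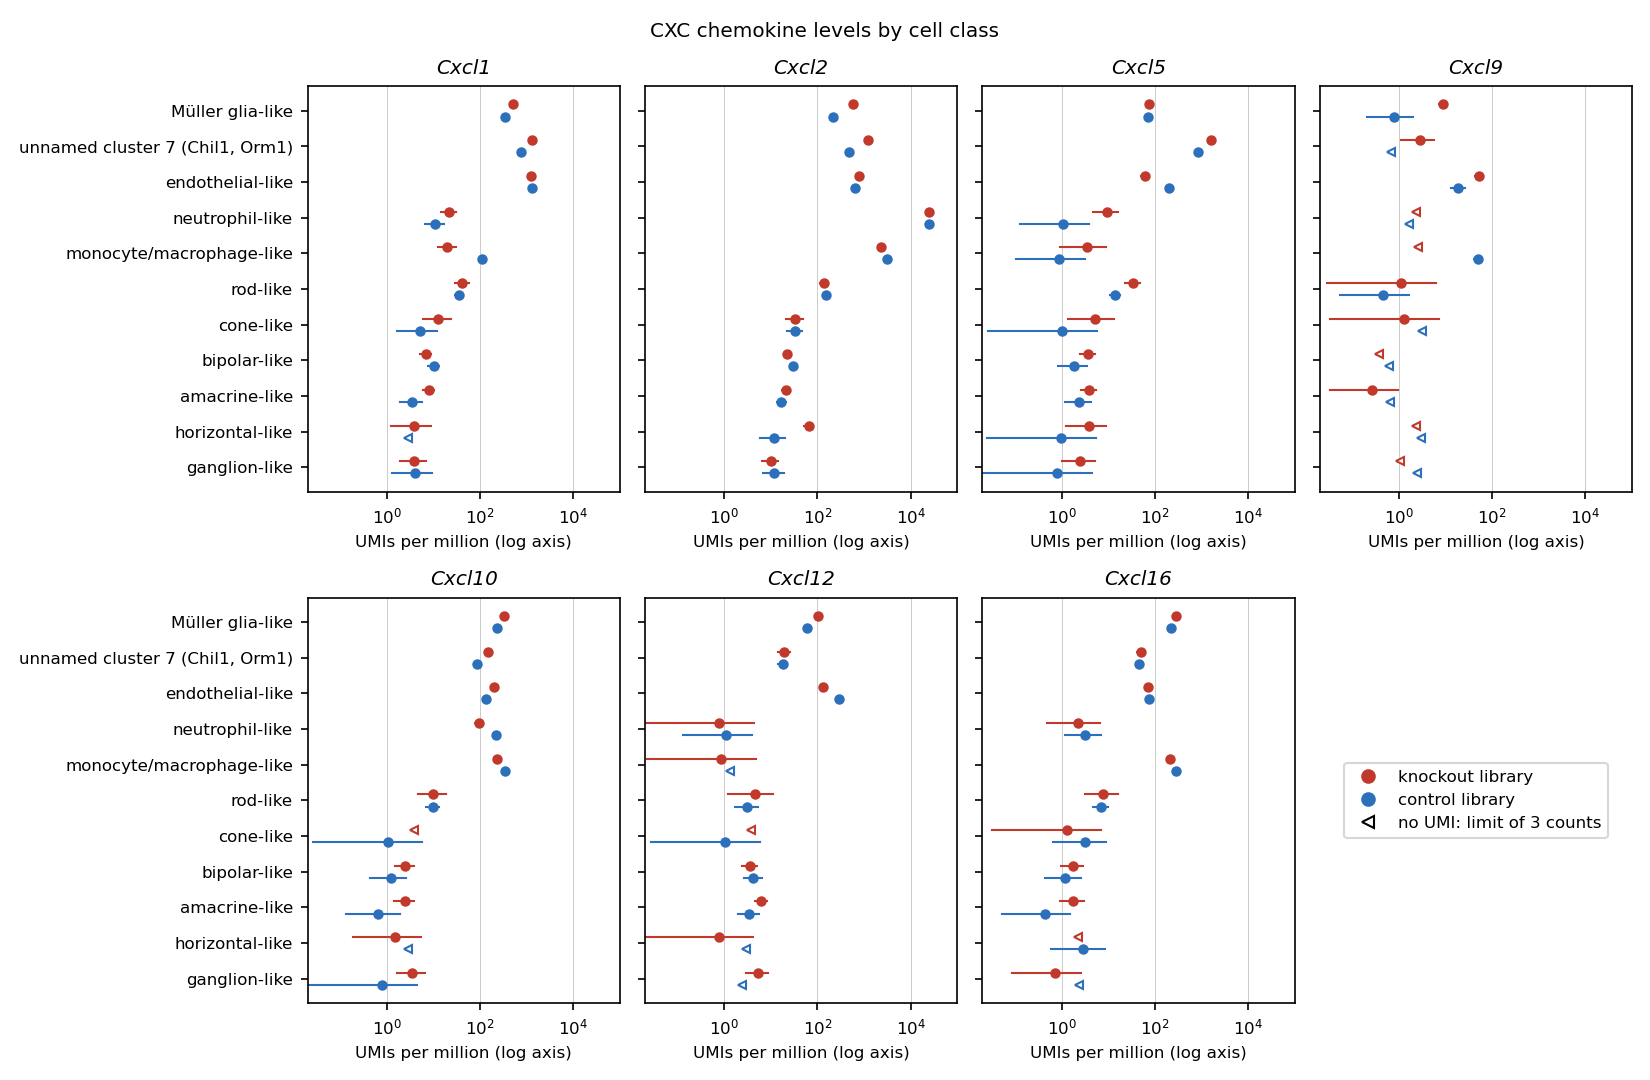
Level of each chemokine (CPM, log axis) in the cell classes, knockout library above control library within each class; lines are exact 95% Poisson intervals and open triangles the limit of 3 counts where no UMI was seen. Cxcl2 stood highest in neutrophil-like cells, at 24581 CPM in the knockout and 25233 CPM in the control library, while Cxcl5 stood highest in the unnamed cluster 7, at 1589.6 CPM in knockout and 848 CPM in control cells.

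Cxcl2, a main neutrophil attractant of the mouse, reached 24581 CPM (24312 to 24851) in 164 knockout neutrophil-like cells and 25233 CPM (25005 to 25462) in 225 control ones. A UMI of it was found in 163 knockout and 223 control neutrophil-like cells, so nearly every such cell carried it. Monocyte and macrophage-like cells followed at 2294 CPM in knockout and 3194 CPM in control cells. An unnamed cluster 10, whose leading genes included Prss56 and the neutrophil genes S100a8 and S100a9, held 1334 CPM in 59 knockout and 3166 CPM in 17 control cells. After these, the unnamed cluster 7 (1200.3 CPM), endothelial-like cells (784 CPM), Müller glia-like cells (579.7 CPM) and the unnamed cluster 8 (379 CPM) followed in the knockout library. In the control library the order was endothelial-like cells (629 CPM), cluster 8 (522 CPM), cluster 7 (468 CPM) and Müller glia-like cells (217 CPM). Neutrophil-like cells held 65.5% of all Cxcl2 UMIs of kept knockout cells and 75.5% of those of control cells.

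Cxcl1, the neighbour of Cxcl2, was by contrast nearly absent from neutrophil-like cells, at 21.5 CPM in knockout and 10.8 CPM in control cells. Rod-like cells, which are not known to make it, had more, at 41.3 CPM in knockout and 35.0 CPM in control cells. The unnamed cluster 7 stood at 1335 CPM (1290.0 to 1381) in knockout and 745 CPM (720.0 to 771) in control cells. Endothelial-like cells stood at 1225 CPM (1179 to 1273) in 50 knockout and 1301 CPM (1249 to 1354) in 55 control cells. These intervals do not overlap within a library, and the order of both classes was opposite in the knockout and the control library. Few cells held much of this RNA. In cluster 7, 1 knockout cell held 804 of 3367 UMIs, and the top 5 cells held 65.3% in the knockout and 39.0% in the control library. In endothelial-like cells the top 5 held 36.4% in the knockout and 63.3% in the control library. Whether the order holds without such cells was not tested. Müller glia-like cells came next with 507 CPM in knockout and 344 CPM in control cells and, being numerous, held 43.4% of the knockout and 20.6% of the control UMIs of Cxcl1.

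Cxcl5, the attractant best known from epithelial and stromal cells, had 1 main source. The unnamed cluster 7 stood at 1589.6 CPM (1541 to 1639.6) in 46 knockout and 848 CPM (821 to 875) in 58 control cells. It held 4010 of the 5719 knockout UMIs and 3814 of the 4791 control UMIs, and a UMI was seen in 89.1% of its knockout and 86.2% of its control cells. The cluster was led by Chil1, Orm1 and Grem1, and its scores for Müller and fibroblast markers were too close for a name. Cxcl5 itself was among its top 10 genes although it had been kept out of the clustering. Müller glia-like cells had 76.0 CPM of Cxcl5 in the knockout and 72.5 CPM in the control library, and endothelial-like cells 60.2 CPM in the knockout and 198 CPM in the control library.

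Cxcl9 was rare everywhere, with 220 UMIs in knockout and 156 UMIs in control kept cells. Endothelial-like cells held 51.7 CPM (42.5 to 62.3) in the knockout and 18.7 CPM (12.9 to 26.1) in the control library. Monocyte and macrophage-like cells had no UMI in 51 knockout cells, against 115 UMIs, or 50.3 CPM (41.5 to 60.3), in 94 control cells, of which 58 UMIs lay in 1 cell. No neutrophil-like cell of either library had a UMI of Cxcl9.

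Cxcl10, the other interferon-induced member, was spread over more classes. Müller glia-like cells held 334 CPM (323 to 345) in the knockout and 229 CPM (216 to 242) in the control library. Monocyte and macrophage-like cells held 229 CPM (203 to 259) in the knockout and 342 CPM (318 to 367) in the control library. With pericyte-like cells left aside, the highest level was thus in Müller glia-like cells in the knockout library and in the myeloid cells in the control library. Endothelial-like cells held 196 CPM in the knockout and 136 CPM in the control library, and neutrophil-like cells 93.5 CPM in the knockout and 219 CPM in the control library. Müller glia-like cells accounted for 68.9% of the knockout and 35.6% of the control UMIs of Cxcl10.

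Cxcl12, the homeostatic member, stood highest in endothelial-like cells, at 131 CPM (116 to 147) in knockout and 296 CPM (271 to 322) in control cells, followed by Müller glia-like cells. It was at or near 0 in blood-derived cells, with 1 UMI in knockout and 2 UMIs in control neutrophil-like cells and 1 UMI in knockout and 0 in control monocyte and macrophage-like cells. Cxcl16 was highest in Müller glia-like cells in the knockout library (282 CPM, 272 to 292), against 218 CPM (205 to 231) in control Müller glia-like cells. Monocyte and macrophage-like cells held 209 CPM (184 to 238) in the knockout and 284 CPM (263 to 307) in the control library. As with Cxcl10, glia led in the knockout and myeloid cells in the control library. Endothelial-like cells stood lower for Cxcl16, at 72.9 CPM in the knockout and 75.3 CPM in the control library.

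**Figure D2:**
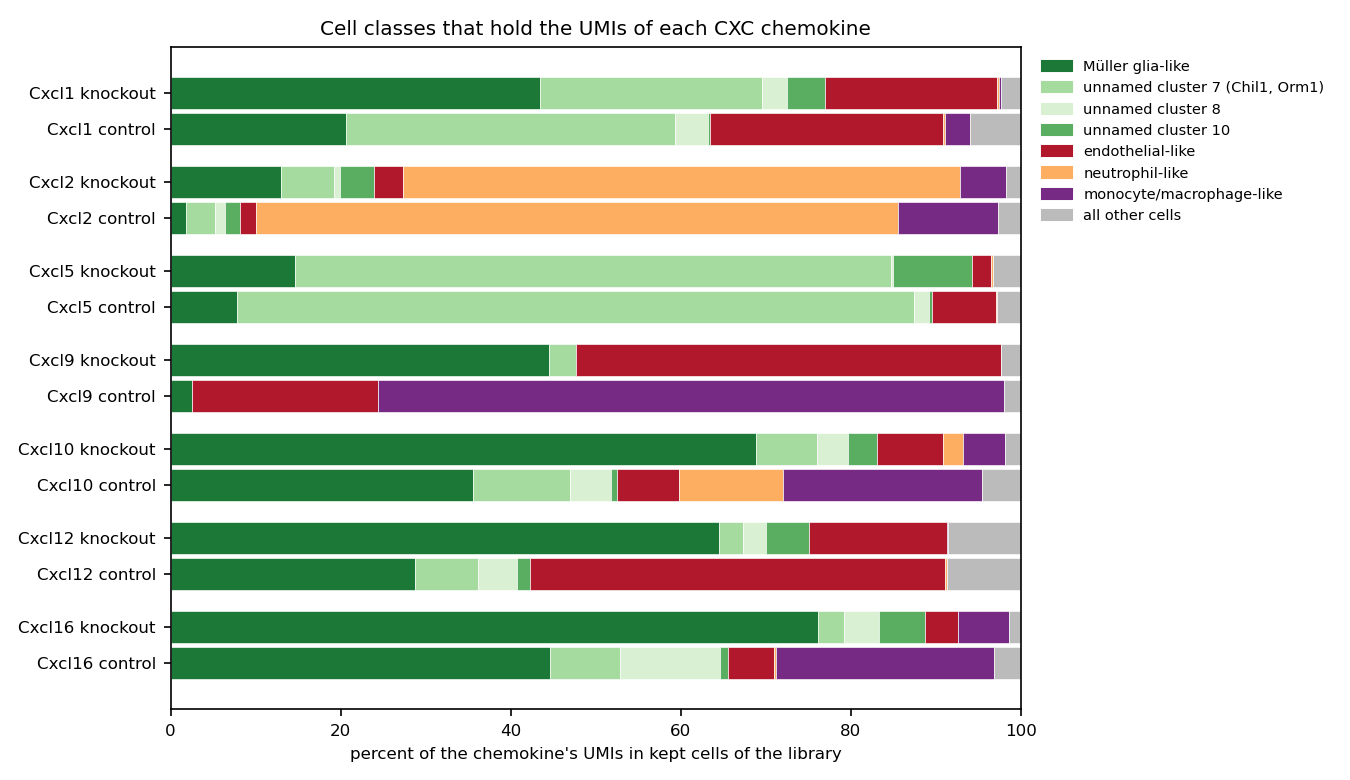
Percent of each chemokine's UMIs held by each cell class, with the knockout bar above the control bar. Neutrophil-like cells held most Cxcl2, at 65.5% in the knockout and 75.5% in the control library, and the unnamed cluster 7 most Cxcl5, at 70.1% in the knockout and 79.6% in the control library.

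The main comparison between libraries was made in Müller glia-like cells, the target of the Cre, with 554 knockout and 346 control cells that held 11006672 and 5199360 UMIs. All 7 chemokines stood higher in the knockout library, by unequal amounts, and Cxcl5 only within its counting error. Cxcl2, Cxcl9 and Cxcl12 were at least 1.5-fold higher, so 3 of 7 members passed that fold and 0 passed it downward. Of all 10196 genes with at least 100 UMIs in these cells, 3.93% were at least 1.5-fold higher and 15.3% at least 1.5-fold lower, with a median ratio of 0.913.

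Among the neutrophil attractants, Cxcl2 differed most. Knockout Müller glia-like cells had 579.7 CPM (566 to 594) of it and control ones 217 CPM (205 to 230.4), a ratio of 2.67 (2.50 to 2.84). Cxcl1 had 507 CPM (493 to 520.2) in knockout cells and 344 CPM (328 to 359.8) in control cells, or 1.48-fold (1.40 to 1.56). For Cxcl5, whose ratio was 1.05 (0.928 to 1.19), 431 of 837 knockout UMIs lay in 1 cell, and the ratio ran between 0.408 and 9.08 over 13 alternative settings. Together the 3 attractants came to 1162 CPM (1142 to 1183) in knockout and 633 CPM (612 to 655) in control cells, a ratio of 1.84 (1.77 to 1.91).

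Of the interferon-induced pair, Cxcl10 had a ratio of 1.46 (1.36 to 1.56). Cxcl9 reached 8.90 CPM in knockout and 0.769 CPM in control cells, 11.6-fold (4.38 to 43.3), but only 9 knockout cells held its 98 UMIs, 45 of them in 1 cell, and 3 control cells its 4 UMIs. The pair summed to 343 CPM (332 to 354) in knockout and 229.8 CPM (217 to 243) in control cells, a ratio of 1.49 (1.40 to 1.59). A captured molecule is counted once whatever its transcript's length, so the sums can be set beside each other. Attractants made up 77.2% (76.6 to 77.9) of the UMIs of both sums in knockout and 73.4% (72.1 to 74.7) in control cells. The order of these shares was not stable, since the knockout share was the lower one in subcluster 0 (69.0% in knockout, 74.1% in control cells) and with cells named one by one (84.4% in knockout, 88.4% in control cells).

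Cxcl12 had 101 CPM (95 to 107) in knockout and 61 CPM (54.4 to 68.1) in control Müller glia-like cells, or 1.65-fold (1.46 to 1.88). Cxcl16 differed less, by 1.29-fold (1.21 to 1.39). Scaling by trimmed means (TMM), which takes most genes as alike, raised every ratio in these cells by 0.20 on the log2 scale. It brought Cxcl1 to 1.69 and Cxcl10 to 1.67, past 1.5-fold, and Cxcl16 to 1.49.

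RNA of other cells in Müller glia-like cells differed as well. Neutrophil markers summed to 87.9 CPM in knockout cells (11 of 12 detected, Ly6g at 0) and 219.8 CPM in control cells (12 of 12). Rod markers summed to 399 CPM in knockout and 1073 CPM in control cells (10 of 10 in both). Erythroid markers summed to 1019 CPM in knockout cells (5 of 5) and 6.73 CPM in control cells (4 of 5, Hbb-bt at 0), and the Müller markers themselves to 5422 CPM in knockout and 7770.0 CPM in control cells. As a measure of free RNA, the mean UMIs of each chemokine in a rod-like cell of the same library were taken away per cell, with class totals kept. This left ratios of 2.78 for Cxcl2, 1.48 for Cxcl1 and 1.46 for Cxcl10. It could change little, since rod-like cells held 0.226 (knockout) and 0.198 (control) Cxcl2 UMIs per cell. Müller glia-like cells held 11.5 (knockout) and 3.27 (control). The part of erythroid and neutrophil RNA in the ratios was not tested.

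**Figure D3:**
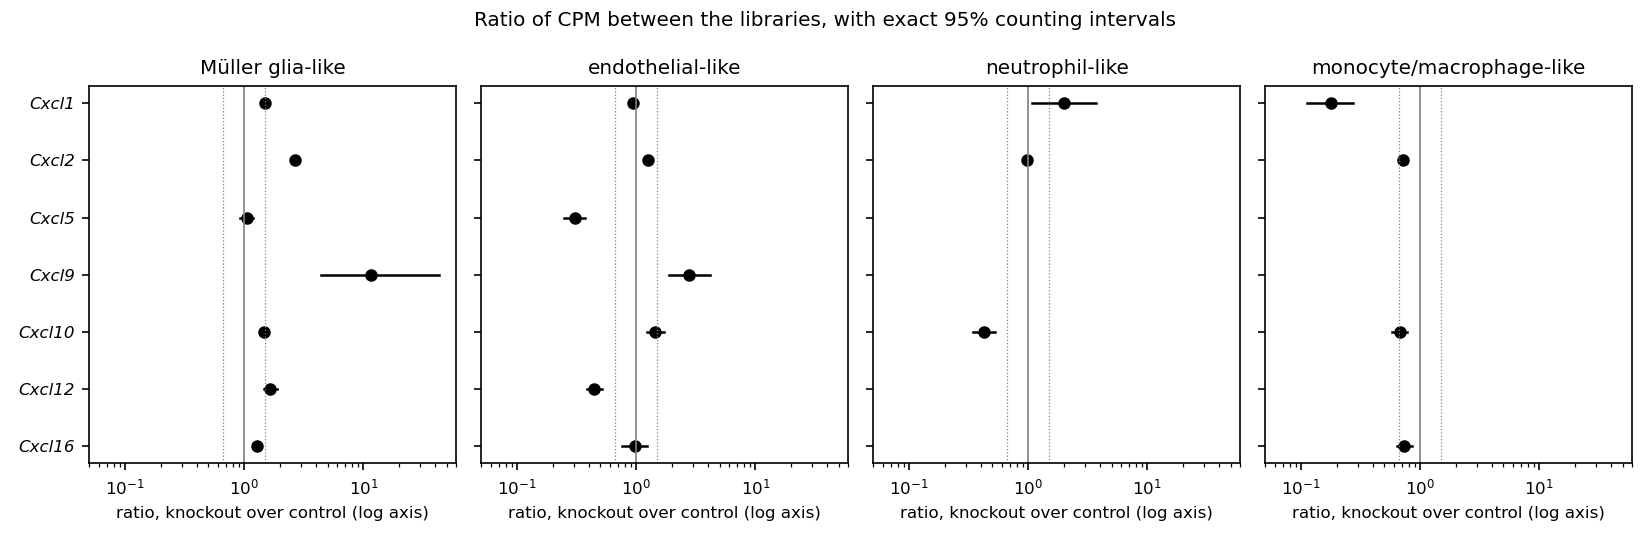
Ratio of CPM, knockout over control (log axis), for each chemokine in 4 cell classes, with exact 95% counting intervals; the solid line is 1 and the dotted lines 1.5-fold. Members with fewer than 20 UMIs in a class or none in 1 library are not drawn. In Müller glia-like cells all 7 points lay right of 1, Cxcl5 within its interval, whereas in monocyte and macrophage-like cells the 4 points drawn lay left of it.

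A small part of the Müller glia-like cells held most of the chemokine RNA. A UMI of Cxcl1 was found in 51.3% of knockout and 33.8% of control cells, yet 23 knockout and 10 control cells held 50% of its UMIs. For Cxcl2 10 knockout and 5 control cells held that share, and for Cxcl10 15 knockout and 9 control cells. Cxcl16 was spread more evenly, with 100 knockout and 38 control cells holding 50% and a UMI in 82.3% of knockout and 63.3% of control cells. Without the 5 cells with most UMIs of each gene, the ratio was 1.59 for Cxcl1, 3.83 for Cxcl2, 1.57 for Cxcl10, 1.68 for Cxcl12 and 1.39 for Cxcl16, while that of Cxcl5 was 0.775.

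Knockout cells were also deeper, with a median of 20128 UMIs against 14319.5 in control Müller glia-like cells. With each cell thinned to 1000 UMIs (13 knockout and 25 control cells were shallower), Cxcl1 was seen in 20.3% (17 to 24.0) of knockout cells and 12.5% (9.05 to 16.6) of control cells. Cxcl2 was seen in 16.8% (13.8 to 20.2) of knockout cells and 7.79% (5.10 to 11.3) of control cells. The intervals overlapped for all other members. Cxcl16 was seen in 20.1% of knockout and 18.1% of control cells, and Cxcl10 in 12.8% of knockout and 9.35% of control cells. For Cxcl12 the shares were 7.95% in knockout and 5.61% in control cells, and for Cxcl9 0.924% and 0.312%. Cxcl5 had the lower share in knockout cells (3.51%, against 4.67% of control cells). Rod-like cells, which should lack these genes, had a median of 994 UMIs in the knockout and 1114 UMIs in the control library before thinning, so they lost far fewer UMIs to it than Müller glia-like cells. In them Cxcl1 was seen in 3.33% of knockout and 3.17% of control cells, and Cxcl2 in 6.67% of knockout and 13.3% of control cells. Deeper neurons thinned alike showed Cxcl2 in 3.96% of knockout and 4.23% of control bipolar-like cells and in 4.37% of knockout and 3.48% (1.86 to 5.87) of control amacrine-like cells. The knockout share of Cxcl2 in Müller glia-like cells thus lay above all of these neurons, but its interval overlapped that of control rod-like cells (11.9 to 14.8). The control share lay above the amacrine and bipolar shares but below that of control rod-like cells. Its interval overlapped those of control amacrine-like and bipolar-like cells (2.73 to 6.22 for bipolar-like cells).

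Several members were found in the same cell. Among Müller glia-like cells thinned to 5000 UMIs, 11.0% of 482 knockout and 14.2% of 232 control cells had none of the 7 chemokines, and 3 members were seen in 19.1% of knockout and 11.2% of control cells. Cxcl1 and Cxcl2 occurred together in 75 knockout cells, where the product of their shares gives 46.9, and in 23 control cells, where it gives 11.2. An attractant met an interferon-induced member in 78 knockout cells (product 64.5) and 21 control cells (product 19.7).

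Knockout and control Müller glia-like cells lay in different subclusters. Subcluster 0 held 343 knockout and 50 control cells and subcluster 1 held 127 knockout and 71 control cells. Subcluster 2, of shallow cells, held 77 of each. Subcluster 3 held 1 knockout and 81 control cells and subcluster 4 held 6 knockout and 67 control cells. The control cells of subcluster 3 had the highest glutamine synthetase (Glul, 4499.5 CPM) and the lowest Lcn2 (1004 CPM), a secreted acute-phase protein, among the control cells of the subclusters.

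The chemokines differed along these subclusters. Subcluster 3 was rich in Cxcl10 (481 CPM in control cells) and poor in Cxcl1 (89.8 CPM) and Cxcl2 (39.0 CPM), so that attractants made up 21.4% (18.6 to 24.5) of the UMIs of both sums there. In subcluster 1, which had the highest Lcn2 in both libraries, they made up 91.4% (90.7 to 92.2) in knockout cells and 87.4% (85.9 to 88.8) in control cells. The shares did not follow the order of Lcn2. Control cells had 95.1% (92.8 to 96.8) in subcluster 2, with Lcn2 at 15650.0 CPM. They had 92.3% (79.1 to 98.4) in subcluster 4, with Lcn2 at 5964 CPM. Knockout cells had 88.0% in subcluster 2 and 69.0% in subcluster 0. Cxcl5 had its highest level in subcluster 2, at 503 CPM in knockout and 1473 CPM in control cells, and was at 7.12 CPM in knockout and 4.72 CPM in control cells of subcluster 0. Most of its knockout UMIs nevertheless lay in subcluster 1 (596 of 837, of which 431 in 1 cell), and most of its control UMIs in subcluster 2 (325 of 377).

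The ratios differed between subclusters. In subcluster 0 Cxcl2 stood at 541 CPM in knockout and 442 CPM in control cells, 1.22-fold (1.11 to 1.35), and Cxcl1 at 467 CPM in knockout and 351 CPM in control cells, 1.33-fold. Cxcl10 had a ratio of 1.59 (1.41 to 1.80) there. Among the 50 control cells of subcluster 0, 2 held 50% of Cxcl2, 2 held 50% of Cxcl1 and 3 held 50% of Cxcl10. Among its 343 knockout cells these numbers were 10, 20 and 12. In subcluster 1 Cxcl2 stood apart, at 685 CPM in knockout and 266 CPM in control cells, 2.57-fold (2.35 to 2.83), although 2 cells held 50% of its UMIs in either library. Cxcl1 (1.05, 0.978 to 1.13) and Cxcl10 (1.08, 0.928 to 1.27) were within counting error of 1 in subcluster 1. Cxcl12 was 1.45-fold (1.15 to 1.86) higher in subcluster 0 and 1.37-fold (1.12 to 1.67) higher in subcluster 1, while the intervals of Cxcl16 included 1 in both. Split by non-neuronal cluster instead, the same cells gave no single direction. Cxcl12 was higher in clusters 1 (1.57, 1.23 to 2.02) and 3 (1.49, 1.19 to 1.87). It was lower in clusters 6 (0.570, 0.407 to 0.808) and 9 (0.495, 0.342 to 0.733), the latter with 14 control cells. Cxcl16 was higher in clusters 1, 2 and 9 and lower in clusters 3 and 6. In subcluster 2, Cxcl2 was at 3.13 (2.12 to 4.75), Cxcl10 at 1.88 (1.16 to 3.15), Cxcl16 at 1.85 (1.16 to 3.06) and Cxcl5 at 0.342 (0.284 to 0.410) there, among cells with a median of 2930.0 UMIs in the knockout and 1428 UMIs in the control library. The intervals of Cxcl2, Cxcl10 and Cxcl16 included the ratio over the whole class, and that of Cxcl5 lay below it.

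**Figure D4:**
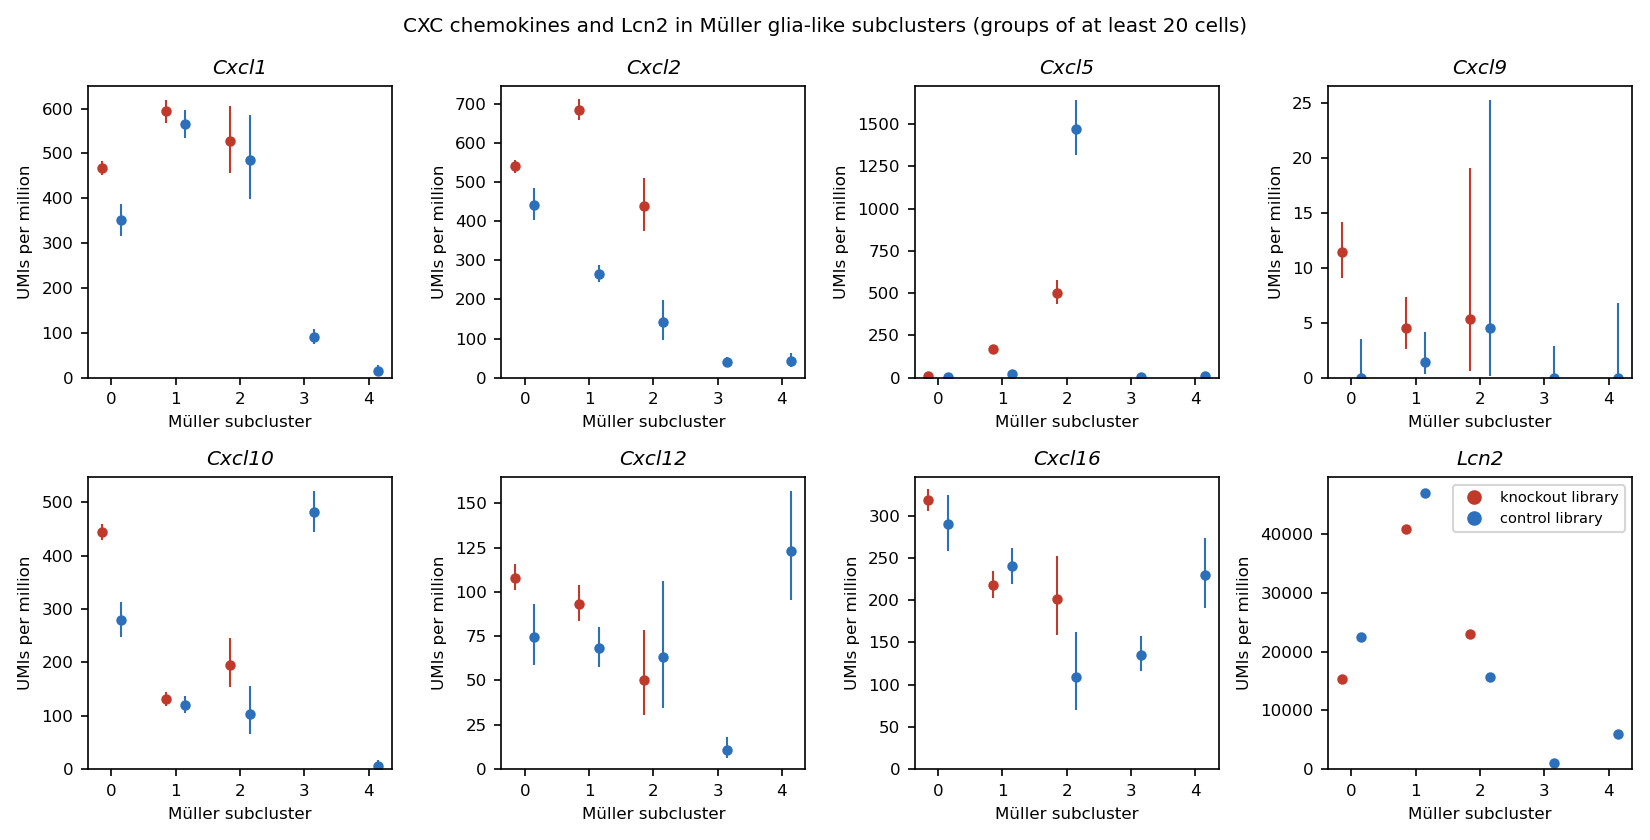
Level of each chemokine and of Lcn2 (CPM, linear axes from 0) in the Müller glia-like subclusters, knockout left of control, with exact 95% Poisson intervals; groups under 20 cells are not drawn. Subcluster 3, drawn for control cells alone, combined high Cxcl10 (481 CPM) with low Cxcl1 (89.8 CPM).

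Endothelial-like cells, which display chemokines to passing leukocytes, gave a mixed picture. Of 7 members, 1 was at least 1.5-fold higher and 2 were at least 1.5-fold lower, beside 2.48% and 5.68% of the 6129 genes tested there. Cxcl9 had a ratio of 2.77 (1.87 to 4.19) and was seen in 24 knockout and 11 control cells. Cxcl12 was lower in knockout cells, at 0.444-fold (0.382 to 0.513), and the same held in both endothelial-like clusters, at 0.596-fold (0.441 to 0.797) in the first and 0.380-fold (0.319 to 0.451) in the second. Cxcl5 was lower as well, at 0.303-fold (0.246 to 0.372), with 1 knockout and 2 control cells holding 50% of it. Cxcl2 had a ratio of 1.25 (1.15 to 1.34) over the class but of 1.51 (1.39 to 1.66) in the first cluster and 3.48 (2.88 to 4.23) in the second, and lay below 1 under 1 of 10 alternatives. Cxcl1 (0.942) lay at 0.646 (0.580 to 0.719) in the first and 1.17 (1.09 to 1.26) in the second, and was above 1 under 3 of 10 alternatives. Neutrophil markers in endothelial-like cells summed to 76.6 CPM in the knockout library (10 of 12 detected, Ly6g and Stfa2l1 at 0) and 2288 CPM in the control library (11 of 12, Ly6g at 0), and their part in these ratios was not tested.

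In neutrophil-like cells 2 members had 100 UMIs, of which 0 were at least 1.5-fold higher and 1 lower, beside 3.54% and 15.5% of the 3221 genes tested. Cxcl2 had a ratio of 0.974 (0.960 to 0.988), which TMM scaling turned to 1.14, so these libraries gave no stable direction. Cxcl10 had a ratio of 0.427 (0.346 to 0.524). A UMI of Cxcl10 was seen in 18 knockout and 26 control cells, and 1 knockout and 3 control cells held 50% of it.

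In monocyte and macrophage-like cells all 5 members with 100 UMIs stood lower in the knockout library. By at least 1.5-fold 0 were higher and 2 lower, beside 3.42% and 6.27% of the 4943 genes tested. Cxcl1 had 19.9 CPM in knockout and 112 CPM in control cells, 0.178-fold (0.111 to 0.273), with 2 control cells holding 50% of it. Cxcl9, with no knockout UMI, was at least 19.4-fold lower at the limit of 3 counts for the knockout cells, and 1 control cell held 50% of it. Cxcl2 (0.718), Cxcl10 (0.671) and Cxcl16 (0.737) lay within 1.5-fold, and Cxcl10 came to 1.10 when cells were named one by one. Neutrophil markers in these cells summed to 6227 CPM in the knockout and 2470.3 CPM in the control library (12 of 12 detected in both), and their part in the ratios was not tested.

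Neurons carried little of this RNA. Rod-like cells held 139.5 CPM of Cxcl2 in the knockout and 155 CPM in the control library. Cxcl2 made up 58.7% of the 7 members' UMIs in knockout and 69.1% in control rod-like cells, against 62.1% over all kept knockout and 75.1% over all kept control cells. In rod-like cells 0 of 2 members with 100 UMIs passed 1.5-fold, beside 12.8% of genes higher and 17.3% lower. In bipolar-like cells 1 of 2 did, beside 2.51% higher and 2.93% lower. This was Cxcl1, at 6.85 CPM in knockout and 10.3 CPM in control cells (0.666, 0.447 to 0.995), a ratio that came to 2.27 when cells were named one by one. In amacrine-like cells 0 of 1 passed, beside 2.69% higher and 2.10% lower, and in cone-like cells, with 1.85% higher and 3.24% lower, no member had 100 UMIs.

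Cxcl12 stood above the level of the named neurons in both libraries in an unnamed cluster led by Hs6st3 and Ebf3, whose best marker score was amacrine. It had 29.2 CPM (16.7 to 47.5) in 59 knockout cells and 24.6 CPM (15.4 to 37.3) in 103 control cells. A UMI was seen in 20.3% of those knockout cells, at a median of 9946 UMIs, and in 14.6% of the control cells, at 7026 UMIs. Amacrine-like cells showed 4.21% in the knockout library, at a median of 10183 UMIs, and 3.74% in the control library, at 10788 UMIs. The cluster thus had the higher share at a lower depth than amacrine-like cells. Within the cluster, the library with the higher share was also the deeper one.

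Cxcr2 and Cxcr4 RNA lay mainly in leukocytes, and none of the 8 receptor genes had 100 UMIs in Müller glia-like cells. Cxcr2, the receptor of the attractants, stood at 280.4 CPM in knockout and 265 CPM in control neutrophil-like cells (ratio 1.06, 0.923 to 1.22). Cxcr1, a related receptor, stood at 6.13 CPM in knockout and 6.45 CPM in control neutrophil-like cells. Cxcr4, the receptor of Cxcl12, was found in neutrophil-like cells (140.2 CPM in knockout, 151 CPM in control) and in monocyte and macrophage-like cells (132 CPM in knockout, 101 CPM in control). Cxcr6, the receptor of Cxcl16, had 63 UMIs in 12 of the 18 control T and NK-like cells, and the knockout library had 2 cells of that class, too few for a value. Cxcr3, the receptor of Cxcl9 and Cxcl10, had 8 UMIs in both libraries together, so its level could not be compared at this depth.

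The scavenging receptor Ackr3 was highest in the unnamed cluster 7, with pericyte-like cells left aside, at 125 CPM in knockout and 99.8 CPM in control cells. In endothelial-like cells it stood at 28.7 CPM in knockout and 67.6 CPM in control cells, a ratio of 0.424 (0.307 to 0.581), beside the lower Cxcl12 of the same knockout cells. Ackr1, which takes up chemokines on venules, was at 217 CPM in knockout and 242 CPM in control endothelial-like cells. It overlaps Cadm3 on the same strand, and it was also counted in bipolar-like cells, at 88.0 CPM in knockout and 83.2 CPM in control cells. Cxcr5, which overlaps Bcl9l, was at 48.3 CPM in knockout and 48.9 CPM in control neutrophil-like cells, and Cxcr6 overlaps Fyco1.

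**Figure D5:**
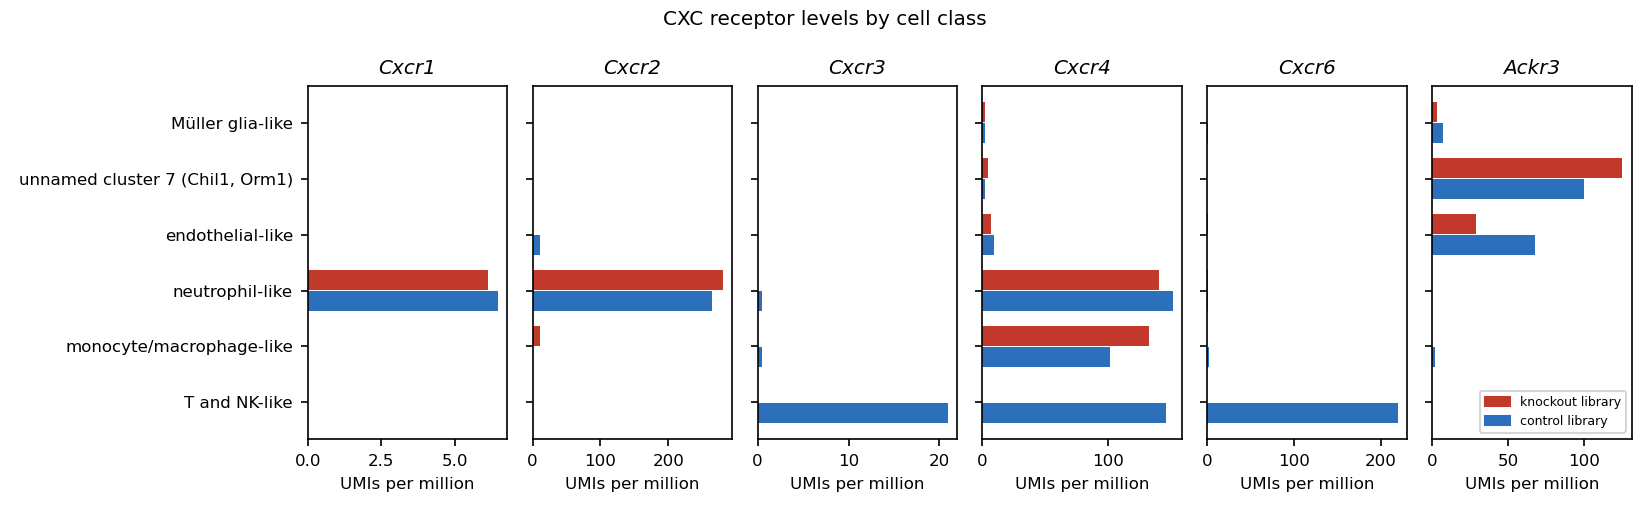
Level of 6 CXC receptor genes (CPM, bars from 0, each panel with its own axis) in 6 cell classes, knockout above control. Cxcr2 lay in neutrophil-like cells at 280.4 CPM in the knockout and 265 CPM in the control library, and knockout T and NK-like cells are left out because there were 2.

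Of the other CXC ligands, Cxcl3, a further Cxcr2 ligand, differed most between the libraries in neutrophil-like cells. Knockout cells had 4436 CPM and control cells 961 CPM, a ratio of 4.61 (4.38 to 4.87). It was seen in 105 of 164 knockout and 103 of 225 control cells, and 17 knockout and 14 control cells held 50% of it, so the difference did not rest on single cells. In the larger neutrophil-like cluster (159 knockout cells at a median of 7186 UMIs, 169 control cells at 7107 UMIs) the ratio was 4.41 (4.15 to 4.68), while that of Cxcl2 was 0.955 in the same cells. Monocyte and macrophage-like cells had 847 CPM of Cxcl3 in the knockout and 977 CPM in the control library. None of the 702 stretches of 50 bases at the 3′ ends of Cxcl3 transcripts occurred in another gene's transcripts.

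Cxcl14, a CXC member with no settled receptor, was counted in amacrine-like cells at 213 CPM in the knockout and 238 CPM in the control library. Cxcl13, which draws B cells, was seen in the same class at 12.4 CPM in the knockout and 4.50 CPM in the control library. Pf4, platelet factor, lay in monocyte and macrophage-like cells at 13 CPM (2 cells) in the knockout and 69.5 CPM (14 cells) in the control library. Cxcl17, which overlaps another gene on the opposite strand, had 3.24 CPM in knockout and 3.83 CPM in control bipolar-like cells.

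The genes upstream of the chemokines gave mixed ratios in Müller glia-like cells. Of 10 genes of the NF-κB axis, 2 were at least 1.5-fold higher and 0 lower, with a median ratio of 1.12, beside 3.93% higher, 15.3% lower and a median of 0.913 over all genes tested. Nfkb1, which encodes the precursor of the p50 subunit, had 662 CPM in knockout and 276 CPM in control cells (2.40, 2.27 to 2.55), and Rel, another subunit, had a ratio of 1.70 (1.5 to 1.94). Nfkbia, the inhibitor IκBα and itself a target, had 721 CPM in knockout and 676 CPM in control cells, and Rela had the smallest ratio (0.946).

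Genes of the interferon axis also differed among themselves in Müller glia-like cells. Irf1, a transcription factor of interferon gamma signalling, had 84.2 CPM in knockout and 179 CPM in control cells (0.470, 0.429 to 0.515). The interferon-stimulated genes Ifit3 (522 CPM in knockout, 438 CPM in control), Isg15 (307 CPM in knockout, 342 CPM in control) and Gbp2, with a ratio of 1.21, lay within 1.5-fold. Cxcl10 was thus higher in the knockout cells of a class in which Irf1 was lower.

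Of 14 inducers and their receptors, 10 had 100 UMIs in Müller glia-like cells, and 1 was at least 1.5-fold lower and 0 higher (median 0.949), beside the 15.3% lower and 3.93% higher of all genes tested. This was Il1b, at 6.36 CPM in knockout and 18.5 CPM in control cells (0.344, 0.249 to 0.474), beside the neutrophil marker RNA given above. The tumour necrosis factor receptor Tnfrsf1a had 92.7 CPM in knockout and 82.3 CPM in control cells, and the interferon receptor subunit Ifnar2 had 123 CPM in knockout and 108 CPM in control cells. No UMI of Ifng or Ifnb1 was found in these cells.

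Of 6 proteases that cut such ligands, 3 had 100 UMIs there, of which 1 was higher and 1 lower by that fold, beside the same 3.93% and 15.3%. Mmp3, a matrix protease, had 22.7 CPM in knockout and 1.54 CPM in control cells (14.8, 7.38 to 34.6), from 250 knockout and 8 control UMIs. Adam10, a sheddase of Cxcl16, had 30.1 CPM in knockout and 45.4 CPM in control cells (0.663, 0.559 to 0.786), and Adam17 had 32.5 CPM in knockout and 31.5 CPM in control cells. The monocyte attractants Ccl2 (1623 CPM in knockout, 1510.4 CPM in control) and Ccl7 (229 CPM in knockout, 184 CPM in control) lay within 1.5-fold.

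Likeness was measured as Pearson's r of log2 (CPM + 1) over 20 points, among 16499 genes. The points were the pairs of named class and library with at least 20 cells. Unnamed clusters were left out, among them the main source of Cxcl5, with 70.1% of its knockout and 79.6% of its control UMIs. The points share libraries and depth, so these values describe the data. Cxcl10 was most like Tnfrsf1a (0.979), Ifih1 (0.977) and Relb (0.975). Cxcl1 was most like Smad6 (0.952), Vcam1 (0.951) and Inf2 (0.943), and Cxcl2 most like Snap23 (0.971), Rhog (0.967) and Furin (0.966). The genes nearest to Cxcl5 were Fkbp10 (0.924), Cdc42ep1 and Il17rd, and those nearest to Cxcl9 were Urah (0.918), Gprc5a and Mcm3. Tgfa (0.971), Plat and Cald1 were nearest to Cxcl12, and Cmtm3 (0.973), Myof and Ccl7 to Cxcl16. Among the members, Cxcl5 and Cxcl12 were most alike (0.88) and Cxcl2 and Cxcl12 least (0.13), while the neighbours Cxcl1 and Cxcl2, which share the promoter motif, reached 0.50.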

How the data were processed

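UMI counts per gene and barcode were deposited by the authors as raw matrices. Per the series' design text they came from Cell Ranger 6.0.0 with mm10; the submitters' processing notes also list Seurat 5.2.1. The sources used here name no annotation release. Of 32285 features, 40 that repeated a symbol were left out. Cells passing the filter given above were clustered in R 4.3.3 with Seurat 5.3.0 (2000 variable genes without the 7 members, 11 principal components, resolution 1.0, seed 1). Non-neuronal cells were clustered again, and Müller glia-like cells once more at resolution 0.4. Clusters were named X-like from 21 marker lists (at least 3 markers with 10 UMIs, a lead of 1 on a log2 score), a rule set after the data were seen, so differences from the study may come from rebuilt names. Scrublet (scanpy 1.11.5) called 0 cells in both libraries and so has not worked; no cell was removed as a doublet.

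UMIs were summed per library and class (Python 3.11.15 with numpy 2.4.6, pandas 2.3.3, scipy 1.17.1). CPM have exact Poisson intervals, ratios exact conditional binomial ones and shares Clopper-Pearson ones. Ratios of members needed 20 UMIs. TMM factors came from edgeR 4.0.16, gene positions from GENCODE M21. The interval code was checked on simulated counts. Named genes were the 7 members, CXC receptors and other ligands with at least 20 UMIs, of each further list the 2 highest CPM and the largest and smallest ratio in Müller glia-like cells, and the 3 genes most like each member; Rel and Cxcr3 were added after their values were seen. Members and lists were chosen with earlier results of these data known. A result of the interferon list is not reported here.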

Additional observations from a re-analysis of the deposited data

Results flagged for a closer look

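In these 2 cases a chemokine's counting interval lay wholly beyond 1.5-fold higher in 1 class and wholly beyond 1.5-fold lower in another. Named classes with at least 50 cells in each library were searched, and the difference between classes was not tested. Intervals that merely exclude 1 on opposite sides also occurred for other members, such as Cxcl12 (1.65 in Müller glia-like, 0.444 in endothelial-like cells). Cxcl9 had a ratio of 11.6 in Müller glia-like cells (8.90 CPM in the knockout, 0.769 CPM in the control library) and of 0 in monocyte and macrophage-like cells (0 and 50.3 CPM). Cxcl9 in endothelial-like cells had a ratio of 2.77 (51.7 CPM in the knockout, 18.7 CPM in the control library), against the same 0 in monocyte and macrophage-like cells. Few cells carried these UMIs: 9 knockout Müller glia-like cells, 24 knockout endothelial-like cells and 7 control monocyte and macrophage-like cells.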

How the results depend on the processing

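The ratios of the attractant sum and of the interferon-induced sum in Müller glia-like cells stayed above 1 under all 13 alternatives. They ran between 1.27 and 2.11 for the attractants and between 1.11 and 1.84 for the pair. Subcluster 2, with 77 cells of each library, was not among these alternatives. There the attractant sum was lower in knockout cells (1470.0 CPM) than in control cells (2099 CPM). The sum of the pair was higher there (201 CPM in knockout, 109 CPM in control cells). The attractant ratio moved to 2.11 with TMM scaling, 1.66 with the members kept among the variable genes, 1.97 with a stricter cell filter (1000 genes, 10% mitochondrial), 1.54 at resolution 0.5, 1.31 with cells named one by one, 2.00 with cells thinned, 1.72 without the 5 top cells, 1.68 as a mean of per-cell CPM, 1.53 with the unnamed clusters 8 and 10 added, 1.27 in subcluster 0 and 1.70 in subcluster 1; the last 3 were chosen after seeing the data. The interferon-induced ratio moved to 1.71 (TMM), 1.84 (named one by one), 1.36 (thinned), 1.63 (without the top cells), 1.75 (per-cell mean), 1.63 (subcluster 0) and 1.11 (subcluster 1). The attractant share of knockout cells moved to 75.4% (members kept), 75% (resolution 0.5), 84.4% (named one by one), 75.5% (thinned), 80.0% (per-cell mean), 80.0% (clusters added), 69.0% (subcluster 0) and 91.4% (subcluster 1). That of control cells moved to 71.2% (stricter filter), 74.8% (resolution 0.5), 88.4% (named one by one), 67.6% (thinned), 76.0% (without the top cells), 80.6% (per-cell mean), 80.3% (clusters added) and 87.4% (subcluster 1). The background share in Müller glia-like cells was 7.59% higher and 8.33% lower with TMM, and 8.74% and 27.9% over genes with at least 1 UMI in each library.

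Of ratios whose counting interval excluded 1, these turned to the other side of 1, and the cause was not tested: Cxcl2 in neutrophil-like cells (1.14 with TMM, 1.05 at resolution 0.5), Cxcl1 in endothelial-like cells (1.04 thinned, 1.45 without the top cells, 1.07 per-cell mean), Cxcl2 in endothelial-like cells (0.855 without high doublet scores), Cxcl2 in pericyte-like cells (8.11 named one by one, from 6 knockout cells; 1.30 per-cell mean, from 3), Cxcl10 in monocyte and macrophage-like cells (1.10), Cxcl5 in rod-like (0.778) and Cxcl1 in bipolar-like cells (2.27) named one by one, Cxcl12 in amacrine-like cells (0.583 thinned) and Cxcl16 in Müller glia-like cells (0.909 in subcluster 1). Ratios whose interval included 1 crossed it as well, such as Cxcl5 in Müller glia-like cells, above 1 under 7 of 13 alternatives. Of all values under alternatives, 340 stayed, 142 moved and 13 turned. The alternative for doublets left out 174 knockout and 548 control cells. No paired analysis was possible because each group had 1 library.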
